A study of Astyanax mexicanus with 12 samples.

Results

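A set of 250 genes whose transcripts fell from 5 to 7 days post-fertilization (dpf) in the liver of both surface fish and Tinaja cavefish is described here, out of 17540 genes tested and 27420 gene identifiers in the count table. Both are morphs of Astyanax mexicanus, the Mexican tetra, a species with sighted populations in rivers and blind populations in caves such as Tinaja. Livers were dissected from surface and Tinaja larvae at 5 dpf, called fed in the study, and at 7 dpf after fasting, with 3 libraries in each of the 4 groups. Each library held the pooled livers of 40 larvae, and embryos from different parent tanks had been mixed before rearing. The older larvae were also the fasting ones, so an effect of age and an effect of nutrition cannot be told apart. The paper describes no food given to the larvae sampled at 5 dpf. It cites visible yolk regression as complete before 5 dpf in surface fish and after 5 dpf in cavefish. Morph and yolk state at 5 dpf therefore cannot be told apart either. No source says that the 3 pools of a group came from separate spawnings, and the p-values therefore describe how much pools vary, part of which may be technical.

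The liver of a larval fish makes plasma proteins, lipoproteins and bile, and takes up nutrients released from the yolk. When yolk is used up and no food arrives, vertebrate livers generally turn from making lipid and glycogen towards oxidising fatty acids. Lipid droplets can still accumulate in the fasting liver, which the paper reports for surface fish but not for cavefish. Protein is broken down, while genes of growth and cell division are often turned down. Which of these programmes the 250 genes belong to was not determined, since no table used here pairs these identifiers with symbols (0 of the 250 had an entry in the RefSeq gene table). For the same reason the labelled tissue could not be checked against liver markers, and no roles or sequences are given for the genes below. In bulk RNA, fewer cells of a type and less RNA per cell cannot be told apart.

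The genes were chosen by their change with age, so that change is described here without a test. Levels are given as CPM, the read count of a gene relative to the size of its library after scaling by trimmed mean of M values (TMM) factors, and the change with age is the mean log2 CPM at 7 dpf minus that at 5 dpf. Of the 17415 tested genes with a mean log2 CPM under 10, 1191 fell by at least 0.8 on the log2 scale in both morphs. In 757 of them the 3 libraries at 7 dpf also lay below the 3 at 5 dpf within each morph (an ordering of 22.2% of all tested genes in surface fish, 12.4% in Tinaja and 6.36% in both), while 129 overlapped in surface fish alone, 204 in Tinaja alone and 101 in both. The 250 genes are those of the 757 whose smaller fall of the pair was largest. The last gene inside the list, ENSAMXG00000042009, changed by -2.64 (surface fish) and -1.77 (Tinaja), and the first outside it, ENSAMXG00000001896, by -1.77 and -2.33. The list therefore ends within a continuous series of values, and the 507 genes that met every condition but stayed outside had median changes of -1.53 and -1.33.

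**Figure D1:**
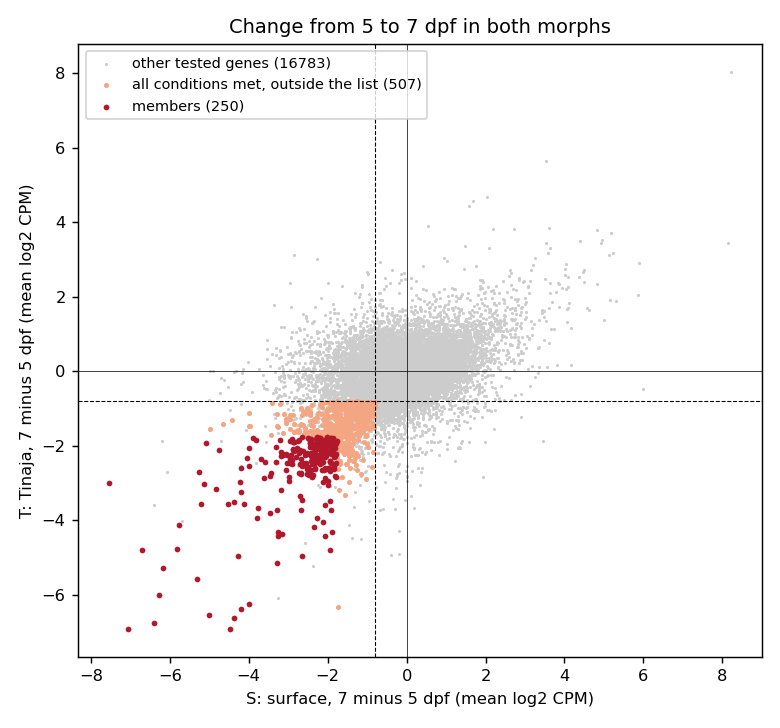
Change from 5 to 7 dpf in surface fish (horizontal axis, log2 CPM) and in Tinaja (vertical axis, log2 CPM) for the tested genes, with the 250 chosen genes marked. The chosen genes fill the lower left corner, where both changes are -1.77 or lower, because they were selected there.

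Within the list the median fall was 5.22-fold in surface fish and 4.96-fold in Tinaja, against changes near 0 over all tested genes, whose median log2 changes were -0.06 and 0.01. The quartiles of the log2 change were -2.93 and -2.07 in surface fish and -2.73 and -2.03 in Tinaja. A fall of at least 4-fold in both morphs was seen in 161 genes, of at least 8-fold in 31 and of at least 16-fold in 13. Both changes were used to choose the genes, so some likeness between the morphs was set in advance. The changes of the morphs lay within 0.5 of each other on the log2 scale in 146 of the 250. They differed by over 1 in 47, of which 24 fell more in surface fish and 23 more in Tinaja. The quartiles of the Tinaja change minus the surface change were -0.25 and 0.5 in the list and -0.54 and 0.61 over all tested genes. In edgeR's quasi-likelihood test, which the choice of genes has already used, 246 of the 250 passed an adjusted p under 0.1 as lower at 7 dpf in surface fish, where 14.4% of all tested genes did, and 212 passed in Tinaja, where 4.72% did. Both contrasts were passed by 210 genes of the list and by 3.12% of all tested genes. Nothing is read from these counts. The count in Tinaja fell to 103 without Tinaja 5 dpf replicate 2 and to 123 without Tinaja 7 dpf replicate 1. Over all tested genes it fell as well, to 170 in place of 828 without Tinaja 5 dpf replicate 2. When libraries were scaled by their totals alone, 41.5% of all tested genes were called lower and 4.84% higher in surface fish, against 14.4% and 14.1% with TMM. The change with age differed between the morphs for 1 gene of the list, ENSAMXG00000043268 (0.4%, beside 0.0456% of all tested genes), which is given in the closing section. In 190 genes all 6 libraries at 7 dpf, of either morph, lay below all 6 at 5 dpf, an ordering that 3.75% of all tested genes had. The choice of genes had already asked for this ordering within each morph, so nothing is read from that count either.

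The libraries held 10.6 to 23.6 M reads in genes, and the mean correlation of log2 CPM between a library and the others of its group was 0.928 to 0.955, lowest for Tinaja 7 dpf replicate 1. Reads aligned outside annotated genes made up 27.2% to 34.3% of reads in surface fish at 5 dpf, 21.0% to 22.7% in surface fish at 7 dpf, 19.9% to 30.0% in Tinaja at 5 dpf and 23.1% to 27.4% in Tinaja at 7 dpf. This share was thus higher in every surface library at 5 dpf than at 7 dpf, so that it moved with age in that morph, and its part in the falls was tested only through the covariate given in the closing section.

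As a whole, the 250 genes took a small share of each liver library at 5 dpf and almost none at 7 dpf. Their summed level in surface fish was 11282, 12272 and 14213 CPM in replicates 1 to 3 at 5 dpf, and 1706, 1369.6 and 2357 CPM at 7 dpf. In Tinaja it was 23001, 46037 and 12383 CPM at 5 dpf, and 1776, 3674 and 2066 CPM at 7 dpf. Every library at 7 dpf lay far below every library at 5 dpf, and Tinaja replicate 2 was the highest of its group at both ages. The group means were 12589 ± 1491 and 1811 ± 502 CPM in surface fish (SD, n = 3), a ratio of 6.95. In Tinaja they were 27141 ± 17205 and 2505 ± 1022 CPM (SD, n = 3), a ratio of 10.8. Without replicate 2 the mean of the other Tinaja libraries was 17692 CPM at 5 dpf and 1921 CPM at 7 dpf. As a share of all reads in genes, the set went from 1.68% ± 0.143 to 0.146% ± 0.0299 in surface fish and from 2.55% ± 1.28 to 0.245% ± 0.138 in Tinaja (SD, n = 3). By this share, which uses no TMM factor, the relative fall was somewhat larger in surface fish. Which morph fell more as a whole therefore depended on the scaling.

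**Figure D2:**
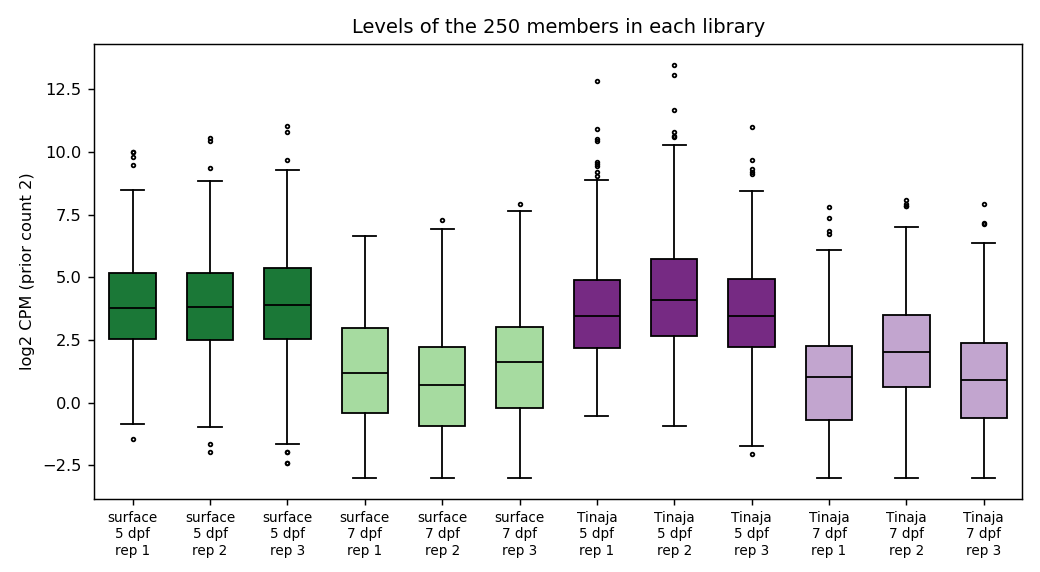
Box plots of the level of the 250 genes in each of the 12 libraries (log2 CPM with a prior count of 2), where the line is the median, the box the quartiles, the whiskers reach to 1.5 box heights and circles are genes beyond them. The medians are 3.46 to 4.08 at 5 dpf and 0.72 to 2.04 at 7 dpf, and Tinaja replicate 2 has the highest median of its group at each age.

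The sum in Tinaja at 5 dpf rested largely on few genes and on replicate 2, whereas the sum of replicate 3 lay within the range of the surface libraries. ENSAMXG00000036698, singled out after its values were seen, took 25.4% of the summed CPM in Tinaja at 5 dpf and 4.35% in surface fish. ENSAMXG00000001789, also singled out in this way, took 13.5% and 4.04%. Without the 4 genes that took the most, the sums at 5 dpf were 7649.9 to 9790.5 CPM in surface fish and 8375 to 22730.5 CPM in Tinaja. The typical gene of the list differed much less between the morphs: the median log2 CPM over the list was 3.77 to 3.89 in the surface libraries at 5 dpf and 3.46 to 4.08 in the Tinaja libraries. At 7 dpf it was 0.72 to 1.62 in surface fish and 0.88 to 2.04 in Tinaja, so the morphs overlapped at both ages.

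The genes spanned a wide range of levels, with a median of the mean log2 CPM of 2.42 against 2.99 for all tested genes. At 5 dpf, 131 had a mean over 10 CPM in both morphs and 15 had a mean over 100 CPM in both. At 7 dpf, 28 stayed over 10 CPM in both morphs, and 5 were over 100 CPM in at least 1 morph. A mean under 1 CPM at 7 dpf was reached by 49 genes in both morphs, by 28 in surface fish alone and by 18 in Tinaja alone, which leaves 155 that kept 1 CPM or more in both. Not a single read was counted over the 3 libraries at 7 dpf for 10 genes in surface fish and for 2 of these in Tinaja. For such genes the fall is known only as a lower bound. Every gene of the list had reads in every library at 5 dpf, which the required ordering of the ages set in advance.

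The deepest fall shared by the morphs belonged to ENSAMXG00000030438. Its level was 16.8, 29.6 and 23.7 CPM in surface fish at 5 dpf and 0.0936, 0.0661 and 0 CPM at 7 dpf. The Tinaja libraries had 15.0, 136 and 9.64 CPM at 5 dpf and 0, 0.337 and 0.0764 CPM at 7 dpf. The ages were far apart in both morphs, and Tinaja replicate 2 at 5 dpf stood well above the other libraries of its age. The surface libraries held 1099 reads at 5 dpf and 3 at 7 dpf, a ratio of 386 with an exact 95% counting interval of 132 to 1877, and the Tinaja libraries held 2816 and 6 reads. The interval covers counting error only. The difference between the morphs, 1.17 ± 1.15 on the log2 scale (SE), did not pass (edgeR adjusted p = 0.511).

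ENSAMXG00000021162 fell almost as deeply, by 6.41 on the log2 scale in surface fish and by 6.76 in Tinaja. Its level was 75.6, 54.8 and 31.1 CPM in surface fish at 5 dpf and 0.328, 0.595 and 0.524 CPM at 7 dpf. In Tinaja it was 224, 1246 and 78.0 CPM at 5 dpf and 0.752, 3.98 and 4.66 CPM at 7 dpf. Every Tinaja library was above every surface library of the same age. The difference between the morphs averaged over the ages was 2.98 ± 0.69 on the log2 scale (SE, edgeR adjusted p = 0.0127), and over 20 alternative analyses (another tool, scaling, filter or model, or a library left out) it ranged from 2.1 to 3.24 with an adjusted p of up to 0.0907.

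The 2 listed genes with the highest mean log2 CPM over the 12 libraries fell less deeply than the 2 above and kept substantial levels. That mean favours genes that stay high at 7 dpf. By CPM summed over the libraries, ENSAMXG00000036698 and ENSAMXG00000001789 ranked above both. CPM does not correct for transcript length. ENSAMXG00000009012 had 1017, 1515 and 2090.3 CPM in surface fish at 5 dpf and 73.5, 122 and 199 CPM at 7 dpf. In Tinaja it had 1476, 1748 and 820.1 CPM at 5 dpf and 166, 229 and 143 CPM at 7 dpf. The ages did not overlap, while the morphs overlapped at each age, and the log2 changes were -3.61 in surface fish and -2.87 in Tinaja. ENSAMXG00000010077 had 711, 1377 and 1766 CPM in surface fish at 5 dpf and 99.5, 154 and 244 CPM at 7 dpf. In Tinaja it had 1375, 1584 and 583 CPM at 5 dpf and 222, 243 and 139 CPM at 7 dpf. In both genes the surface libraries kept the same order at each age, with replicate 1 lowest and replicate 3 highest, and Tinaja replicate 2 was the highest Tinaja library at each age.

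**Figure D3:**
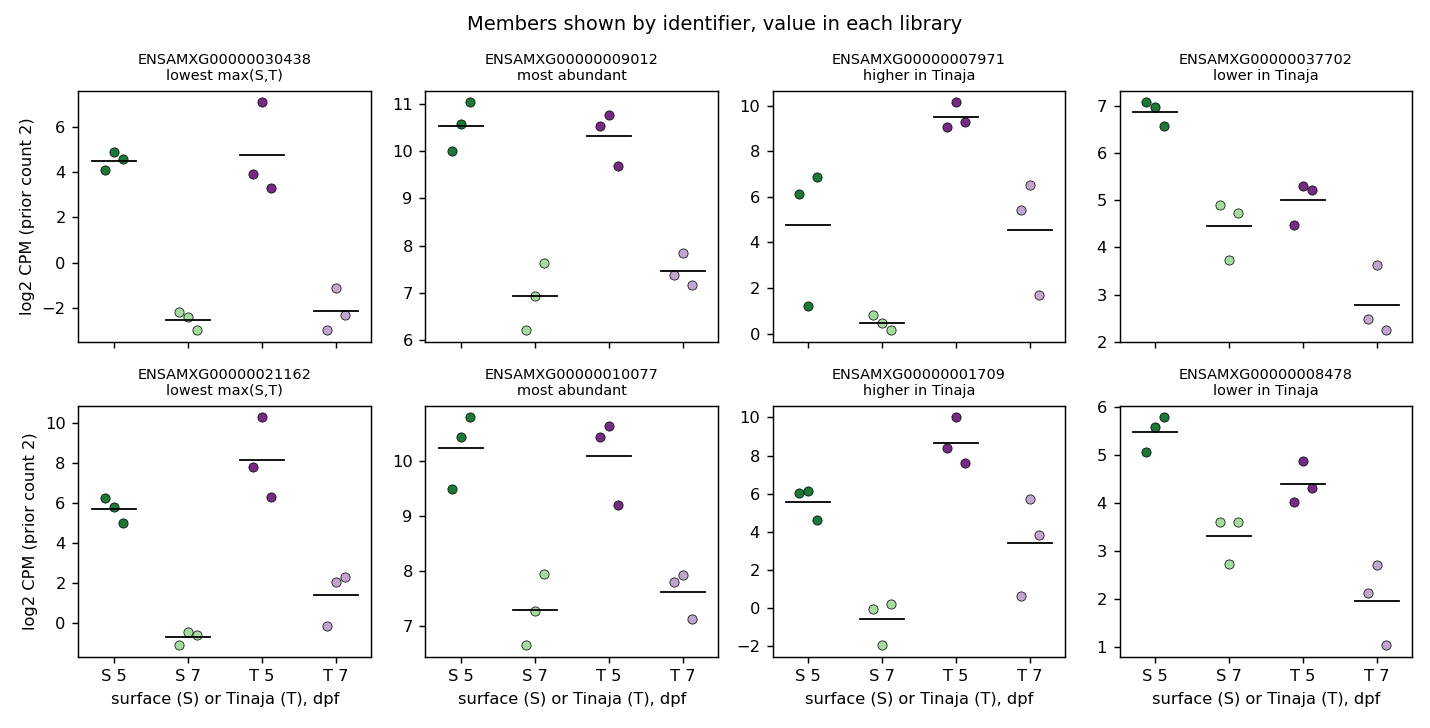
Level of 8 genes in each library (log2 CPM with a prior count of 2, 1 point per library, line at the group mean) in surface fish (S) and Tinaja (T) at 5 and 7 dpf. From left to right the columns hold the genes with the deepest shared fall, those with the highest mean log2 CPM, and those higher and lower in Tinaja. In every panel the points at 7 dpf of a morph lie below its points at 5 dpf.

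Whether the levels of these genes differed between the morphs was tested on the mean of both ages, a contrast that the choice of the genes did not use. In edgeR's quasi-likelihood test 62 of the 250 were higher in Tinaja at an adjusted p under 0.1, or 24.8% against 15.1% of all tested genes, and 50 were lower, or 20.0% against 12.6%. In both directions together 112 passed, or 44.8% against 27.6%. A call on the mean of both ages does not ask for the same direction at each age. Among the 62 is ENSAMXG00000043268 (0.863 on the log2 scale, edgeR adjusted p = 0.0174), whose Tinaja libraries all lay below the surface libraries at 5 dpf. A difference that passed and was at least 2-fold was found for 58 genes higher in Tinaja (23.2% against 9.12%) and for 23 lower (9.2% against 6.77%). With library totals in place of TMM the shares of all tested genes were 10.9% higher and 16.4% lower, and those of the list 22.8% and 20.8%. The list held a larger share of higher genes than all tested genes did in 20 of 20 alternatives. For lower genes this was so in 19 of 20, the exception being the fit without Tinaja 7 dpf replicate 1, where 35 genes of the list (14.0%) and 15.4% of all tested genes were lower. The number lower in Tinaja depended on single libraries, and without Tinaja 7 dpf replicate 2 more genes of the list were lower (80) than higher (52). The number lower was 31 when Tinaja 5 dpf replicate 1 was left out, 31 for surface 7 dpf replicate 3 and 32 for surface 5 dpf replicate 3. Calls over all tested genes moved too, with 1513 lower in place of 2208 without Tinaja 5 dpf replicate 1. The 23 genes at least 2-fold lower became 14 without replicate 1 and 37 without replicate 2 of surface fish at 7 dpf, and 51 without Tinaja 7 dpf replicate 2. The median difference over the list was -0.23 on the log2 scale with quartiles of -0.72 and 1.21, beside -0.01, -0.37 and 0.41 for all tested genes. No gene of the list had all 6 libraries of a morph above the 6 of the other. Of all tested genes, 3.58% had this for Tinaja and 2.18% for surface fish. The falls with age by which the list was chosen leave little room for such an ordering, so nothing is read from it. In 26 genes the 3 Tinaja libraries lay above the 3 surface libraries at both ages, or 10.4% against 5.99% of all tested genes, and in 9 they lay below at both ages, or 3.6% against 3.84%.

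The genes called higher and lower in Tinaja differed in the size of that difference and in how low they went. The 62 higher genes had a median difference of 2.56 on the log2 scale, with a range of 0.72 to 5.49. The top value was that of ENSAMXG00000002462, which had 0 reads in surface fish at 7 dpf, so its size is poorly determined. The same holds for ENSAMXG00000012551 (5.377) and ENSAMXG00000005775 (4.385), also with 0 reads there, and for ENSAMXG00000004172 (4.132), with 1 read. Further higher genes had 3 reads or fewer in surface fish at 7 dpf, so the median of 2.56 rests partly on poorly determined sizes. The 50 lower genes had a median of -0.98, with a range of -1.92 to -0.64. For the higher genes the median of the group means was 13.3 CPM in surface fish at 5 dpf, 0.474 CPM in surface fish at 7 dpf, 33.5 CPM in Tinaja at 5 dpf and 4.84 CPM in Tinaja at 7 dpf. Among them 36 were under 1 CPM in surface fish at 7 dpf and 15 in Tinaja. For the lower genes the medians in the same order were 23.6, 4.78, 12.3 and 2.68 CPM, with 1 gene under 1 CPM in surface fish at 7 dpf and 13 in Tinaja. The log2 changes with age, which the choice of genes used, had medians of -2.65 and -2.81 for the higher genes and -2.3 and -2.26 for the lower genes, in surface fish and Tinaja respectively. The 138 genes not called between the morphs had a median difference of -0.32.

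**Figure D4:**
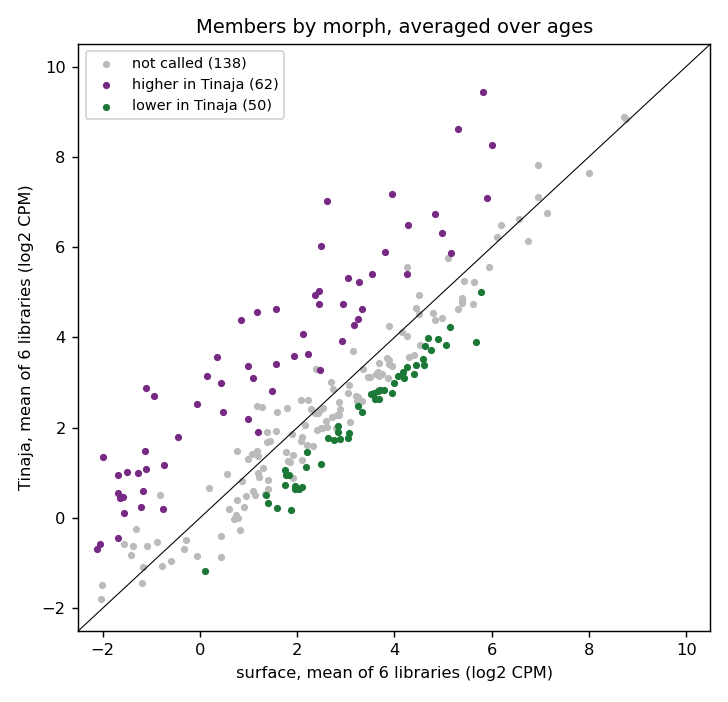
Mean log2 CPM over both ages in surface fish (horizontal axis) and Tinaja (vertical axis) for the 250 genes, by their call between the morphs. The 62 genes called higher in Tinaja are scattered above the diagonal with a median difference of 2.56, and the 50 called lower lie closer to it with a median of -0.98.

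The genes shown as higher or lower in Tinaja were picked for no overlap of the morphs at each age and by size of difference. That ordering and the large sizes were thus set by the choice. ENSAMXG00000007971 had the largest difference among the genes shown as higher in Tinaja. Its level was 69.7, 2.21 and 118 CPM in surface fish at 5 dpf and 1.64, 1.26 and 0.972 CPM at 7 dpf. In Tinaja it was 530.2, 1133 and 632 CPM at 5 dpf and 42.7, 92.3 and 3.13 CPM at 7 dpf. Every Tinaja library lay above every surface library of its age, although surface replicate 2 at 5 dpf was near the level at 7 dpf and Tinaja replicate 3 at 7 dpf was far below the other pools. The difference was 4.36 ± 0.91 on the log2 scale (SE, edgeR adjusted p = 0.00763), and it passed in all 20 alternatives with values of 3.89 to 4.78.

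ENSAMXG00000001709 was likewise higher in Tinaja. Its level was 64.9, 70.4 and 24.0 CPM in surface fish at 5 dpf and 0.843, 0.132 and 1.05 CPM at 7 dpf. The Tinaja libraries had 334, 1031 and 193 CPM at 5 dpf and 1.44, 53.3 and 13.9 CPM at 7 dpf. The morphs did not overlap at either age, but Tinaja at 7 dpf spread widely, with replicate 1 close to the surface libraries. The difference was 4.18 ± 0.81 (SE, edgeR adjusted p = 0.00546), with values of 3.4 to 4.47 over the alternatives. ENSAMXG00000036698, the gene with the largest share of the summed level in Tinaja at 5 dpf, had 887, 431 and 325 CPM in surface fish at 5 dpf and 16.01, 3.17 and 4.79 CPM at 7 dpf. In Tinaja it had 7230.3, 11407 and 2047 CPM at 5 dpf and 29.7, 274 and 80.4 CPM at 7 dpf. Its libraries did not overlap between the morphs at either age, and the difference was 3.82 ± 0.67 (SE, edgeR adjusted p = 0.00311).

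In the other direction, ENSAMXG00000037702 was lower in Tinaja. Its level was 136, 126 and 95.9 CPM in surface fish at 5 dpf and 29.96, 13.2 and 26.4 CPM at 7 dpf. The Tinaja libraries had 22.3, 39.6 and 37.4 CPM at 5 dpf and 5.47, 12.3 and 4.58 CPM at 7 dpf. Each Tinaja library lay below each surface library of its age, and the Tinaja libraries at 5 dpf overlapped the surface libraries at 7 dpf. The difference was -1.74 ± 0.29 (SE, edgeR adjusted p = 0.0019), with values of -2.01 to -1.61 over the alternatives.

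ENSAMXG00000008478, also lower in Tinaja, had 33.5, 48.3 and 55.4 CPM in surface fish at 5 dpf and 12.1, 6.48 and 12.1 CPM at 7 dpf. In Tinaja it had 16.04, 29.2 and 19.9 CPM at 5 dpf and 4.24, 6.40 and 1.91 CPM at 7 dpf. At 7 dpf the highest Tinaja library was only just below the lowest surface library. The difference was -1.18 ± 0.28 (SE, edgeR adjusted p = 0.0142), with values of -1.39 to -1.01 over the alternatives.

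Levels of the listed genes also varied together among the libraries of a group. Tinaja replicate 2 was the highest of its group for 181 of the 250 genes at 5 dpf and for 205 at 7 dpf, where it was the highest for 39.2% and 27.4% of all tested genes. In surface fish replicate 3 was the highest for 117 genes at 5 dpf and 140 at 7 dpf, or 46.8% and 56.0% against 34.3% and 36.2% of all tested genes. At the low end, surface replicate 2 at 7 dpf was the lowest of its group for 162 genes, or 64.8% against 35.4% of all tested genes. The median deviation of the listed genes from their group means was 0.38 in Tinaja replicate 2 at 5 dpf, 0.70 in Tinaja replicate 2 at 7 dpf and -0.42 in surface replicate 2 at 7 dpf on the log2 scale, whereas over all tested genes the median deviation stayed between -0.04 and 0.03 in every library. Without Tinaja 7 dpf replicate 2 the median log2 change of the list in Tinaja was -2.68 in place of -2.31, and without Tinaja 7 dpf replicate 3 it was -2.1.

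The spread within groups was wider for these genes than for the tested genes at large. The median SD of log2 CPM over 3 libraries was 0.45 in surface fish at 5 dpf, 0.60 in surface fish at 7 dpf, 0.48 in Tinaja at 5 dpf and 0.77 in Tinaja at 7 dpf. Over all tested genes it was 0.35, 0.34, 0.37 and 0.45. The comparison was not matched for level. At 7 dpf the median log2 CPM of a library was 0.72 to 2.04 over the list and 2.92 to 3.04 over all tested genes. The part of level in the wider spread was not tested. As a description across the 12 libraries, the deviations of pairs of listed genes had a mean correlation of 0.353 over 31125 pairs, with quartiles of 0.0955 and 0.645, beside 0.229 for the 507 genes outside the list and 0.000485 for all tested genes. All pairs share the same libraries. A mean near 0 can hide genes that move together in opposite directions. The largest shared pattern (first principal component) held 34.4% of the variation of the deviations in the list and 30.0% over all tested genes. The second held 25.2% and 18.0%. The 50 genes lower in Tinaja moved most closely together, with a mean correlation of 0.708. It was 0.328 among the 62 higher genes, 0.395 among the 138 not called and 0.222 between the higher and lower genes. All 50 of the lower genes were highest in replicate 2 among the Tinaja libraries at 7 dpf. So were 40 of the 62 higher genes and 115 of the 138 not called, so this was not particular to the lower genes. Of the genes named above, ENSAMXG00000008478 had the most companions in the list, with 28 members whose deviations correlated with its own at 0.9 or more, a level reached by 0.353% of all tested genes. ENSAMXG00000037702 had 13, and ENSAMXG00000030438 had 1.

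**Figure D5:**
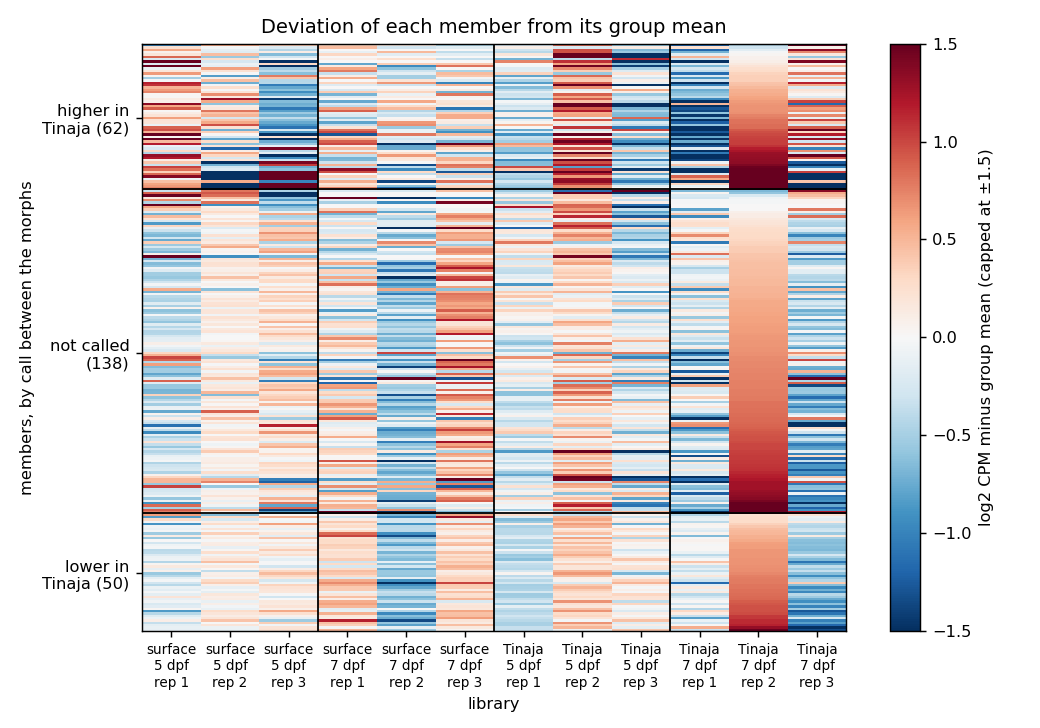
Deviation of each of the 250 genes from its group mean (log2 CPM, colour) in each of the 12 libraries, with genes ordered by their call between the morphs. Tinaja replicate 2 at 7 dpf lies above its group mean (red) for 238 genes, and the 50 genes lower in Tinaja show the most uniform columns.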

How the data were processed

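Polyadenylated RNA of 12 liver pools was sequenced as single reads of 75 bp from stranded libraries. The submitters' processing notes name STAR 2.7.3a and RSEM 1.3.0, and the methods name astMex_2.0 as the genome and Ensembl 102 as the annotation. The authors deposited 1 table of whole-number read counts, not normalized, for 27420 identifiers. The strand setting of this counting was not given in the sources used here, so antisense partners and near-identical paralogues are uncertain. The 4 rows that name no gene (unaligned reads, for example, at 3.9% to 9.63% of a library) stayed out of library sizes and tests.

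Tests on the deposited counts used edgeR 4.0.16 under R 4.3.3 and its quasi-likelihood method (robust fit, TMM factors, edgeR's filter on low counts, a mean for each of the 4 groups, 8 residual degrees of freedom), with Benjamini-Hochberg adjustment over all 17540 genes and a threshold of 0.1. SEs were derived from the F statistics. CPM and log2 CPM (prior count 2) were computed with TMM-scaled library sizes. Deviations are log2 CPM minus the group mean. The edgeR calls and the choice of falling genes were tried on simulated data, whereas the counting intervals and SEs were not. With 3 reads or fewer in a group, the ratio carries an exact 95% counting interval, and for a group with no read the bound uses 3 counts over the group. Alternatives used limma 3.58.1, DESeq2 1.42.0, other scalings and filters, and each library left out.

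The members, lists and tests were chosen with earlier results of these data known. Identifiers named are the 2 with the largest shared fall, the 2 with the highest mean log2 CPM and 1 on each side of the list's end. Also named are 2 in each direction between the morphs by size of difference (adjusted p under 0.1, mean log2 CPM of at least 3). The last part also asked that all 6 libraries of a morph lie apart from the other 6, which 0 members met, and was relaxed after the values were seen to no overlap at each age. It then left 10 higher and 5 lower genes. Marker and pathway lists by gene symbol were not analysed here.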

Additional observations from a re-analysis of the deposited data

Results flagged for a closer look

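ENSAMXG00000043268 drew attention because its change with age differed between the morphs by edgeR's test of that difference. Its level was 15.6, 12.9 and 11.4 CPM in surface fish at 5 dpf and 0.421, 0.198 and 0.224 CPM at 7 dpf. In Tinaja it was 7.66, 6.17 and 7.84 CPM at 5 dpf and 2.12, 1.42 and 1.91 CPM at 7 dpf. Surface fish were thus higher than Tinaja at 5 dpf and lower at 7 dpf, with no overlap at either age. Averaged over the ages, the gene is nonetheless among those called higher in Tinaja. The log2 changes were -5.08 and -1.93, and the fitted difference of the changes, Tinaja minus surface, was 3.48 ± 0.44 (SE, edgeR adjusted p = 0.0287). It is the only gene of the 250 that passed, beside 0.0456% of all tested genes, and 17 of the 250 (6.8%) had an unadjusted p under 0.05, against 15.8% of all tested genes. The change within each morph had been used to choose the genes, so this is a description. The difference was 3.12 to 4.03 over the alternatives, with an adjusted p of 0.115 in limma-voom and of 0.524 with a covariate for reads outside genes.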

How the results depend on the processing

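The changes with age were used to choose the genes, so the sign of those changes was largely set in advance. The genes plotted in panels of their own kept the sign of their changes with age under every alternative run. So did the median changes of the list. Calls were less stable. In Tinaja the fall of ENSAMXG00000001709 lost its call in 5 of 20 alternatives and that of ENSAMXG00000030438 in 1. The fall of ENSAMXG00000007971 in Tinaja was not called in the main fit (edgeR adjusted p = 0.102) and passed in 3 of 20. In surface fish it lost its call in 1. The other falls of the plotted genes passed in all 20. Of the other named genes only ENSAMXG00000043268 was followed, for its difference of changes. The balance of calls between the morphs was not kept. Without Tinaja 7 dpf replicate 2 the list held 52 higher and 80 lower genes in place of 62 and 50. By library totals 10.9% of all genes were higher and 16.4% lower, in place of 15.1% and 12.6%. With library totals in place of TMM, which moved the median change of all genes to -0.75 in surface fish, the median of the list there was -3.05, 1270 genes met the conditions in place of 757, and 7279 of all genes were called lower in surface fish in place of 2521. Of the 250, 198 stayed in the list under library totals, 249 under edgeR's relative log expression factors and 223 with a prior count of 0.5. Leaving out each library in turn kept 205 to 237 of them, with median changes of -2.59 to -2.21 in surface fish and -2.68 to -2.1 in Tinaja.

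With reads outside genes as a covariate, 171 of the list and 1010 of all genes were called lower in surface fish, and the change with age differed between the morphs for 0 genes (874 of all and 20 of the list at an unadjusted p under 0.05). DESeq2 called 1249 genes lower in Tinaja in place of 828, and 835 genes, 3 of them in the list, as different in their change with age, in place of 8 and 1. For that difference limma-voom called 0 of the list (9, or 3.6%, at an unadjusted p under 0.05, against 14.6% of all genes), and 15 genes passed with no filter on low counts. The cause of these differences was not tested.

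Leaving out each library gave 1543 to 3129 genes lower in surface fish, and 170 to 1033 genes lower in Tinaja with 103 to 217 of the list. For the difference of the changes the ranges were 4 to 1484 genes, highest without Tinaja 7 dpf replicate 1, and 1 to 9 of the list. Between the morphs 31 to 80 of the list were lower in Tinaja, 14 to 51 by at least 2-fold, and 52 to 69 were higher, beside 1513 to 2750 lower and 2158 to 3170 higher over all genes.

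Whether replicate numbers pair the libraries could not be settled with 3 libraries a group. Deviations of libraries with the same number in different groups correlated at -0.283 to 0.41, and those with different numbers at -0.367 to 0.383. With the replicate block, 519 genes were called lower in Tinaja, 188 of them in the list, and 56 and 41 of the list were higher and lower in Tinaja than in surface fish (22.4% and 16.4%, against 12.8% and 9.71% of all genes). The precision is limited by 3 pools a group, by the wide spread in Tinaja at 7 dpf and, for the 24 and 9 genes with 3 reads or fewer at 7 dpf in surface fish and Tinaja, by depth.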
